A study of Mus musculus with 2 samples.

Results

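Annotated transcripts that carry a microexon, here an internal exon of 27 nt or less, were followed in long-read RNA sequencing of the mouse adrenal gland. The members were the transcript models of the class Known (identical to an annotated GENCODE M21 transcript) that hold such an exon and had 3 or more reads summed over both libraries. They were thus selected on their reads, and their detection and levels are a description. The rule found 385 models of the 16840 Known models with 3 or more reads, and they hold 304 distinct microexons in 279 genes. The annotation has 4094 models with an internal exon of 27 nt or less, and 574 of them had any read. At the read limit, 40 models had 3 reads and were members, while 69 had 2 reads and were not. At the length limit, 80 microexons of 27 nt were in members, and 48 exons of 28 nt met the same read rule.

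The study has 1 group of 2 libraries, both from total RNA of the adrenal gland of 10-day-old males of B6CASTF1/J, which is an F1 hybrid of mouse strains. Spike-in RNAs were added to both, and the labels state a starting quantity of 1 µg for replicate 2. The donor label is the same for both samples, and the labels of replicate 2 disagree on its animal, so separate animals cannot be assumed, and a p-value below compares the reads of 2 libraries and not conditions. Replicate 1 held 971827 reads, of which 927914 lay on annotated genes, and replicate 2 held 1407511 and 1303420. Summed levels are given in CPM, reads per 1000000 reads on annotated genes. The 5 steroid-making cortex markers summed to 25832 and 17422 CPM in replicates 1 and 2, and the 5 chromaffin markers of the medulla to 11403 and 6053 CPM. The 5 liver markers summed to 8570 and 25963 CPM, the 5 skeletal muscle markers to 845 and 2754 CPM, and the 9 neuron markers to 133 and 194 CPM. By Fisher's exact test (adjusted p under 0.05), the liver and muscle lists were higher in replicate 2 in 5 of 5 genes each. The neuron list was higher in 4 of the 7 tested. The cortex and chromaffin lists were lower in 4 of 5 each. Over all 11650 genes tested, 13.0% were higher and 22.2% lower. In such bulk tissue, fewer cells of a type and less RNA per cell cannot be told apart.

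Microexons are recognised by the spliceosome with little room for the enhancer sequences that longer exons contain, and many depend on dedicated regulators. Srrm4, which is expressed in neurons, and its relative Srrm3, also found in endocrine cells, are known to promote their inclusion, and Ptbp1 is known to repress many of them. A microexon whose length is a multiple of 3 adds a few amino acids without changing the reading frame, often at the surface of a protein domain.

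Members took 12666 of 740881 reads of Known models in replicate 1 (1.71%, 95% Clopper-Pearson interval 1.68% to 1.74%) and 16826 of 963631 in replicate 2 (1.75%, 1.72% to 1.77%). All intervals here describe counting error alone, because PCR copies of a molecule can be read more than once. Of the 385 models, 358 had reads in both libraries and 27 in 1 library only. The median member had 15 reads, and the most-read member had 3410. The annotation places 283 of the 304 microexons in coding sequence and 12 at its edge, while 6 lie in 5' UTRs and 3 in noncoding models.

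The sequences of the microexons that were both included and skipped show how little they add. In each line the microexon is in capitals, and 12 nt of the exons on each side in the spliced transcript are in lower case. The sequences come from the GENCODE M21 transcripts and the positions are on mm10.
Anxa6, 18 nt, chr11:54987051-54987068, minus strand: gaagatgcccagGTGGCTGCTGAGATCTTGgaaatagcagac
Dnm2, 12 nt, chr9:21490658-21490669, plus strand: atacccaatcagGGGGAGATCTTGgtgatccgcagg
Abi1, 15 nt, chr2:22963214-22963228, minus strand: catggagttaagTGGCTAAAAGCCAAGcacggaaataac
Mars, 24 nt, chr10:127296717-127296740, minus strand: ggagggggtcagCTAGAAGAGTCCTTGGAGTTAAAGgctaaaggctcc
Mia2, 27 nt, chr12:59146336-59146362, plus strand: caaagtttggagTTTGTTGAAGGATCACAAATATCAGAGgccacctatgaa
Sgce, 27 nt, chr6:4690469-4690495, minus strand: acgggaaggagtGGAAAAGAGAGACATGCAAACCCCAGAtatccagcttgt
Cd47, 25 nt, chr16:49908054-49908078, plus strand: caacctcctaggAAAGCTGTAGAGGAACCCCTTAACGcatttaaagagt
Gopc, 24 nt, chr10:52357342-52357365, minus strand: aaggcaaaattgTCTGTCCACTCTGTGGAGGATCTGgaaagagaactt
The shortest, in Dnm2, holds 4 codons, and that of Abi1 holds 5. The exon of Cd47 is not a multiple of 3, so reads that skip it continue in another frame.

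Some paralogues carry microexons of the same length. Whether these lie at the same place in the aligned proteins was not tested. Mark2 and Mark3 are kinases that act on microtubule-associated proteins and cell polarity. Tpd52 and Tpd52l2 are coiled-coil proteins of the tumour protein D52 family.
Mark3, 27 nt, chr12:111651958-111651984, plus strand: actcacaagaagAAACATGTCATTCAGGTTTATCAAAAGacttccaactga
Mark2, 27 nt, chr19:7279986-7280012, minus strand: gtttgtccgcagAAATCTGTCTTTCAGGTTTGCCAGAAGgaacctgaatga
Tpd52, 27 nt, chr3:8943551-8943577, minus strand: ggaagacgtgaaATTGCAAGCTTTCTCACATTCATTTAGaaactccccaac
Tpd52l2, 27 nt, chr2:181510504-181510530, plus strand: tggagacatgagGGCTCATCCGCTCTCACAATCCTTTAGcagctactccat
The microexons of Mark2 and Mark3 are identical at 21 of 27 positions, and those of Tpd52 and Tpd52l2 at 17 of 27.

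Several gene families, chosen after the values were seen, held repeated microexons. The first is the vitamin K-dependent proteins, the clotting factors and their relatives whose glutamate residues are carboxylated. All 8 genes of the family list (F2, F7, F9, F10, Proc, Pros1, Proz and Gas6) had a member with 1 microexon, each 25 nt long. For 7 of them it reads as follows.
F2, 25 nt, chr2:91635171-91635195, minus strand: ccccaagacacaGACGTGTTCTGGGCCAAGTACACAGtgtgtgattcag
F7, 25 nt, chr8:13030557-13030581, plus strand: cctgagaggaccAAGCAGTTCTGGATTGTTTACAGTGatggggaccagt
F9, 25 nt, chrX:60004408-60004432, plus strand: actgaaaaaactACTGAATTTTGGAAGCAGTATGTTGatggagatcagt
F10, 25 nt, chr8:13045076-13045100, plus strand: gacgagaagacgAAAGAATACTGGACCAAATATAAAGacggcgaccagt
Proz, 25 nt, chr8:13064602-13064626, plus strand: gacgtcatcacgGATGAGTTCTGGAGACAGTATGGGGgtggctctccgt
Pros1, 25 nt, chr16:62888981-62889005, plus strand: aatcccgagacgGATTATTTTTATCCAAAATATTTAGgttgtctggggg
Gas6, 25 nt, chr8:13485671-13485695, minus strand: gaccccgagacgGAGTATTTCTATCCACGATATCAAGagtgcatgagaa
The sequences of Pros1 and Gas6 are identical at 19 of 25 positions, while F2 matches Pros1 at 12 and Gas6 at 11. Each of the 7 starts at a codon boundary and leaves a codon incomplete at its end. Known models that include the 25-nt exon had 534 reads in replicate 1 and 1224 in replicate 2 over the 8 genes, and 0 reads of Known models skipped it. Across models of all classes, 7 reads skipped it. F2, which encodes prothrombin, had 247 including reads in replicate 1 and 752 in replicate 2. Gas6, the ligand of the receptor Axl, had 138 and 143. Pros1, which encodes the anticoagulant protein S, had 66 and 74. F10 had only 1 and 2 including reads in Known models but 58 and 207 across all classes.

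The second family is the tripartite motif (TRIM) proteins, which are mostly ubiquitin ligases. Their members held 14 microexons in 11 genes, of 23, 24 and 27 nt. The 23-nt exon is shown for 4 of these genes.
Trim27, 23 nt, chr13:21188041-21188063, plus strand: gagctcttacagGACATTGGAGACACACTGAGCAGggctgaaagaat
Trim21, 23 nt, chr7:102560593-102560615, minus strand: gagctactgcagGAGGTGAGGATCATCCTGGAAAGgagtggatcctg
Trim68, 23 nt, chr7:102679674-102679696, minus strand: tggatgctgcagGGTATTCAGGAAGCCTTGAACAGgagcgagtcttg
Trim35, 23 nt, chr14:66307026-66307048, plus strand: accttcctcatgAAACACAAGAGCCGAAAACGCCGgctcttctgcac
Over the family, including Known models had 505 reads in replicate 1 and 366 in replicate 2, counted once per microexon. The 3 skipping reads were all in Trim68, with 2 including and 2 skipping reads in replicate 1 and 5 and 1 in replicate 2. Across models of all classes, 16 reads skipped these microexons. Trim35 had 330 and 151 including reads and 0 skipping reads in Known models.

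The third family is the collagens, whose triple helix repeats glycine at regular steps. Their 11 microexons lie in 4 genes (Col4a1, Col5a2, Col6a2 and Col18a1), with lengths of 14, 21 and 27 nt. The 27-nt exons shown here are built from whole codons, of which 3 in 9 encode glycine.
Col4a1, 27 nt, chr8:11240041-11240067, minus strand: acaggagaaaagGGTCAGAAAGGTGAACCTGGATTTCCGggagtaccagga
Col18a1, 27 nt, chr10:77069820-77069846, minus strand: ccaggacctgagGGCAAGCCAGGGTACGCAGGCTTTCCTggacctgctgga
Col18a1, 27 nt, chr10:77076148-77076174, minus strand: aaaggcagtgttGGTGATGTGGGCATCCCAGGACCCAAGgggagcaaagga
Col4a1, a basement membrane collagen, had 164 and 156 reads that include each of its pair of microexons. Known models of the 4 genes had 638 including reads in replicate 1 and 575 in replicate 2, counted once per microexon, and 0 skipping reads. Across models of all classes, 52 reads skipped them.

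A single member microexon of the 264 coding ones with a full 12-nt window holds an in-frame stop codon, TGA. It lies in Selenow, which encodes a small selenoprotein, and in selenoproteins this codon is read as selenocysteine.
Selenow, 25 nt, chr7:15920449-15920473, minus strand: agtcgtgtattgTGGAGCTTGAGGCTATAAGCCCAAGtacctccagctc
Selenow had 77 and 173 including reads, with 0 reads in any class skipping the exon. Across the 264 windows, the microexons had a median GC content of 46.2%, from 16% to 74.1%, and 115 started at a codon boundary.

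The share of exons detected differed with their length. Of 323 annotated internal exons of 1 to 11 nt, 0 were in a member, and 0 had an including read in a model of any class, although 38 of them lie in genes with 10 or more reads of Known models that skip them. From 12 to 17 nt, 5 of 360 annotated exons were in members (1.39%). From 18 to 22 nt this was 64 of 534 (12%), from 23 to 27 nt 235 of 1013 (23.2%), and from 28 to 51 nt 3626 of 9908 (36.6%). The 12-nt exon of Dnm2, the 14-nt exon of Col5a2 and the 15-nt exon of Abi1 were the shortest members. Whether exons under 12 nt were skipped in the tissue or placed otherwise when the reads were assigned was not tested.

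**Figure D1:**
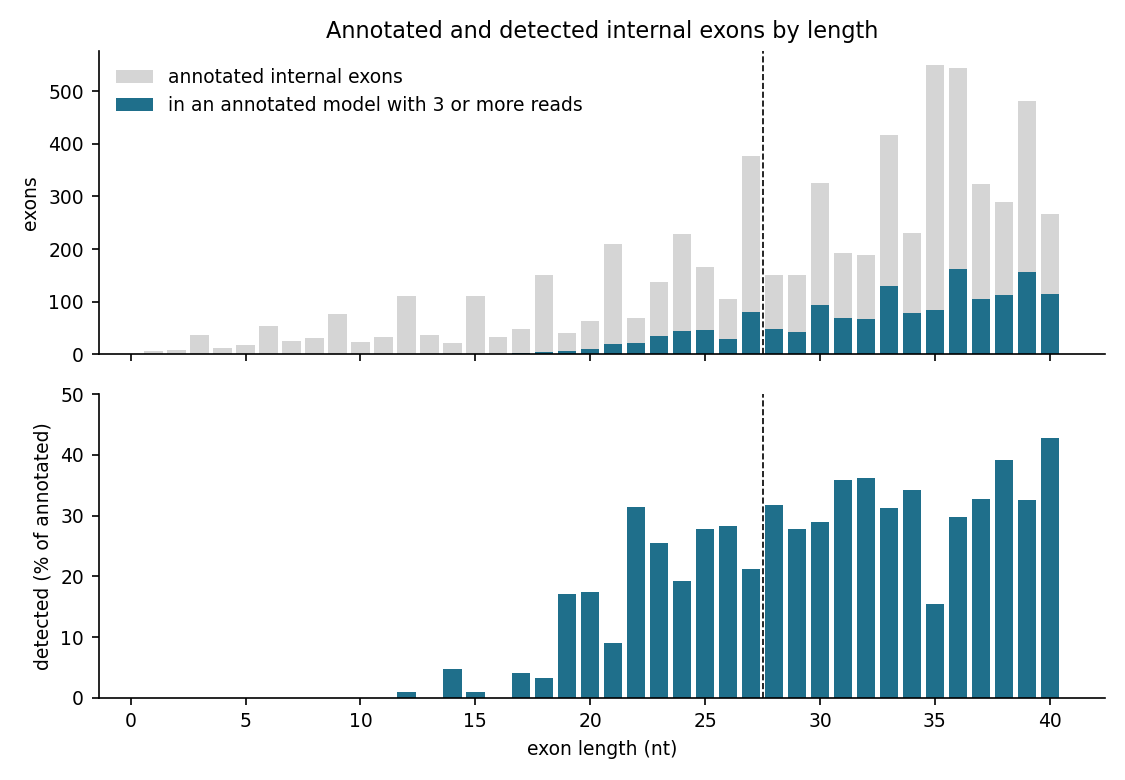
The upper panel plots the number of annotated internal exons of each length from 1 to 40 nt (grey) and of those in a Known model with 3 or more reads (blue), and the lower panel the second as a percentage of the first. The dashed line marks the limit of 27 nt. No bar stands below 12 nt in blue, and 80 of 377 exons of 27 nt were in members.

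Most member microexons showed no annotated alternative. For 221 of 304, no annotated model of the gene skips the exon, and 83 have such a model. Of these 83, 49 had 0 reads of a skipping Known model and 34 had some. In the 34, the length was a multiple of 3 in 27, and in the 270 other member microexons in 123. Inclusion, the share of including reads among including and skipping reads of Known models, averaged under 25% in 12 of the 34, 25% to 75% in 11 and over 75% in 11. All 12 with inclusion under 25% were multiples of 3, as were 7 of the 11 in the middle and 8 of the 11 above. Of the 83 with an annotated skipping model, 51 had at least 10 such reads in each library. Of these 51, 21 (41.2%) were included at 5% to 95%. Longer exons were counted in the same way, again only those with an annotated skipping model. The same share was 23.6% of 385 exons of 28 to 51 nt, 14.6% of 2135 of 52 to 100 nt, 10.2% of 2867 above 100 and up to 200 nt and 14.6% of 492 over 200 nt. A member had to be included to be chosen, so exons that are always skipped are not in these counts, in any length class.

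**Figure D2:**
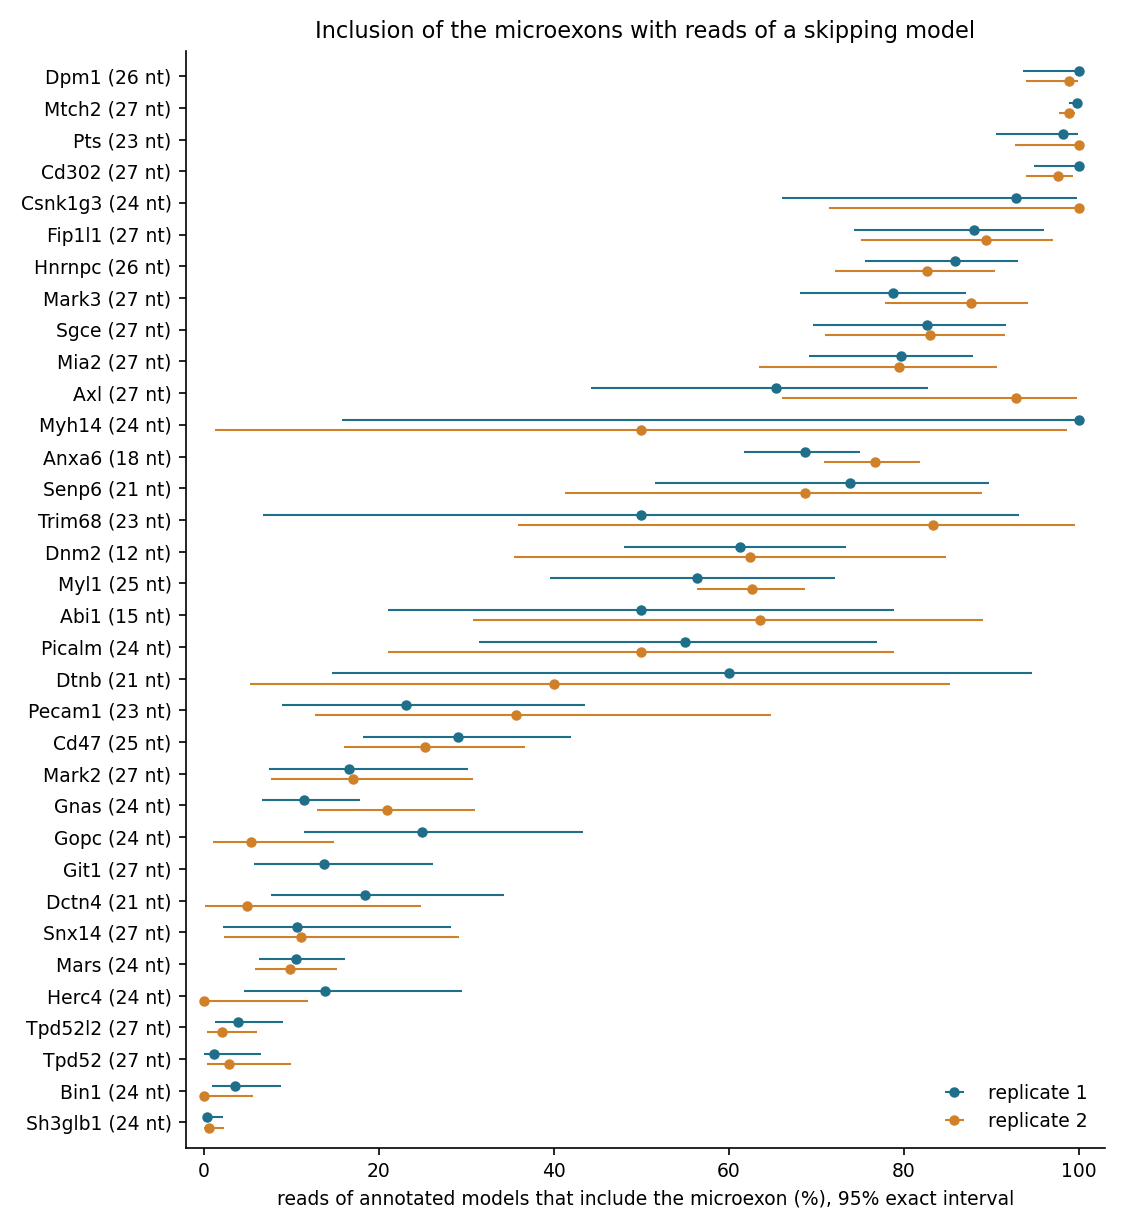
Each row is a microexon with reads of a Known model that skips it, and the horizontal axis is the percentage of reads that include it. Points are replicate 1 (blue) and replicate 2 (orange), with bars for the 95% exact interval. The intervals of the libraries overlap in every row with a value in both, and for Git1 replicate 2 had no read of a Known model at this exon.

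Members with no annotated skipping model include basic cell machinery. Of the genes given here, Snrpg, Ube2a, Ube2b and Trp53 were picked with their values known. Gpx4 had 471 including reads in replicate 1 and 1002 in replicate 2, with 0 skipping reads in models of any class. Snrpg, a core protein of the spliceosome, had 51 and 276 for its 23-nt exon, with 0 and 1 skipping reads in any class. The paralogous ubiquitin-conjugating enzymes Ube2a and Ube2b each hold a 26-nt microexon, and the exons are identical at 21 of 26 positions. Ube2a had 37 and 78 including reads and Ube2b 63 and 151. Trp53, the tumour suppressor p53, had 110 and 52 for its 22-nt exon, with 2 and 1 skipping reads in any class. In all of these the exon was in nearly every read that could show it.

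Among genes of membrane traffic and the cytoskeleton, several microexons were used at intermediate levels. Anxa6, a calcium-dependent membrane-binding annexin, had 136 including and 62 skipping reads in replicate 1 (68.7%, interval 61.7% to 75.1%). In replicate 2 it had 188 and 57 (76.7%, 70.9% to 81.9%), a mean of 72.7% ± 5.69 (SD, n = 2, as for the means below). Dnm2, the dynamin that cuts endocytic vesicles from the membrane, had 38 including and 24 skipping reads in replicate 1 and 10 and 6 in replicate 2. The mean inclusion of its 12-nt exon was 61.9% ± 0.855. The intervals of Dnm2 are far wider than this SD, at 48.1% to 73.4% in replicate 1 and 35.4% to 84.8% in replicate 2. Abi1, an adaptor of the actin-nucleating WAVE complex, had 6 including and 6 skipping reads, then 7 and 4, a mean of 56.8% ± 9.64. Mia2, which helps to export large cargo from the endoplasmic reticulum, had 63 and 16, then 31 and 8, a mean of 79.6% ± 0.184 for its 27-nt exon. A second microexon of Mia2, 22 nt long, had 79 and 39 including reads and 0 skipping reads.

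Other microexons of this group were mostly skipped. Snx14, a sorting nexin, had 3 including and 25 skipping reads in replicate 1 (interval 2.27% to 28.2%). In replicate 2 it had 3 and 24 (2.35% to 29.2%), a mean of 10.9% ± 0.281. These intervals are far wider than the SD. Mean inclusion was 15.2% ± 13.9 in Gopc, a Golgi-associated PDZ protein. Sh3glb1, a membrane-bending endophilin, had 1 including and 245 skipping reads in replicate 1 and 2 and 310 in replicate 2. Bin1, a membrane-curving protein of muscle and brain, had 4 including and 108 skipping reads, then 0 and 63. Git1, a scaffold of focal adhesions, had 7 including and 44 skipping reads in replicate 1, while the 10 reads of the gene in replicate 2 gave 0 of either kind in Known models. In Sh3glb1 and Bin1, no skipping Known model with reads joins the same neighbouring exons, and inclusion was 100% when only such models counted.

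The paralogous pair of kinases used their microexons of equal length differently. Mark3 had 63 including and 17 skipping reads in replicate 1 and 64 and 9 in replicate 2, a mean of 83.2% ± 6.31. Mark2 had 8 and 40, then 8 and 39, a mean of 16.8% ± 0.251. In both libraries Mark3 lay above Mark2, and their 95% intervals did not overlap (68.2% to 87.1% against 7.48% to 30.2% in replicate 1). The D52 pair both mostly skipped their microexons, with 1 including and 82 skipping reads, then 2 and 68, in Tpd52. Tpd52l2 had 5 and 121, then 3 and 139. Their means were 2.03% ± 1.17 and 3.04% ± 1.31, within the spread of the libraries. When only skipping models that join the same neighbouring exons counted, inclusion was 95.6% in Mark3 and 11.8% in Tpd52l2.

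Membrane proteins spanned the range. Sgce, a sarcoglycan, had 43 including and 9 skipping reads, then 49 and 10, a mean of 82.9% ± 0.254. Cd47, which signals to phagocytes, had 18 and 44, then 19 and 56, a mean of 27.2% ± 2.62. Cd302, a C-type lectin, had 70 and 0, then 163 and 4. Among RNA-binding and translation genes, the 24-nt exon of Mars, the methionyl-tRNA synthetase, was included in 18 of its reads and skipped in 153 in replicate 1, then 17 and 156, a mean of 10.2% ± 0.495. Fip1l1, a polyadenylation factor, had 37 and 5, then 34 and 4, a mean of 88.8% ± 0.975. Hnrnpc, a heterogeneous nuclear ribonucleoprotein whose 26-nt exon lies in the 5' UTR, had 61 and 10, then 62 and 13, a mean of 84.3% ± 2.30. Counting models of all classes lowered this to 62.7%, lowered Dnm2 to 43.9% and Cd47 to 15%.

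Further genes had few skipping or few including reads. Mtch2, a mitochondrial outer membrane protein, had 512 including and 1 skipping read in replicate 1 and 576 and 6 in replicate 2. Dpm1, of dolichol-phosphate mannose synthesis, had 56 and 0, then 90 and 1, and Pts, of tetrahydrobiopterin synthesis, had 56 and 1, then 49 and 0. Herc4 had 5 and 31, then 0 and 29, and Dctn4, a dynactin subunit, had 7 and 31, then 1 and 19. The muscle gene Myl1 encodes myosin light chains from alternative promoters. Its 25-nt exon had 22 including and 17 skipping reads, then 158 and 94. Its skipping models do not join the same neighbouring exons. For the noncoding 24-nt exon of Gnas (16 and 124, then 18 and 68), no skipping Known model with reads does so. The remaining 8 microexons, named here after their values were seen, had 40 or fewer such reads in all and mean inclusions from 29.4% in Pecam1 to 96.4% in Csnk1g3. They were Picalm at 52.5% ± 3.54, Senp6 at 71.3% ± 3.65, Axl at 79.1% ± 19.4, Dtnb, Trim68 and Myh14. With models of all classes, mean inclusion was 57.1% in Csnk1g3, 25.1% in Dtnb and 4.57% in Gnas.

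Between the libraries, inclusion was tested exon by exon (Fisher's exact test, two-sided), adjusted by the Benjamini-Hochberg method over all 5930 annotated cassette exons that had at least 10 such reads in each. Of 51 member microexons tested, 0 passed an adjusted p of 0.05, against 9 (0.152%) of all 5930. An exon without a skipping read in either library cannot pass. Only 30 of the 51, and 1449 of the longer exons, had such a read. At an unadjusted p under 0.05 there was 1, in Gopc, with 8 including and 24 skipping reads in replicate 1 and 3 and 53 in replicate 2 (exact p = 0.0152), and over all exons tested 1.15% lay under it. Of the 30 tested microexons with a skipping read, inclusion was higher in replicate 2 in 16 and lower in 14. The median absolute difference was 3.41 percentage points, against 3.33 in 1449 longer exons. The share of microexons called therefore lies near the background, and with so few reads per library only large differences could be seen. For Anxa6 the exact p was 0.0668 before adjustment, and the 95% intervals of the libraries overlapped.

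Unannotated models added further skipping reads. Counting all 4 classes (Known, incomplete matches, and models with unannotated combinations or splice sites), 53 of 196 member microexons with 10 or more reads in each library (27%) were included in under 95% of reads. For longer exons chosen by the same read rule this was 7.87% of 2451 at 28 to 51 nt, 4.51% of 17519 at 52 to 100 nt, 3.07% of 28722 above 100 and up to 200 nt and 4.71% of 5094 over 200 nt. In replicate 1 alone the microexon share was 29.6% and in replicate 2 it was 26.5%, and in each library it was the highest of the 5 length classes, followed by that of 28 to 51 nt.

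**Figure D3:**
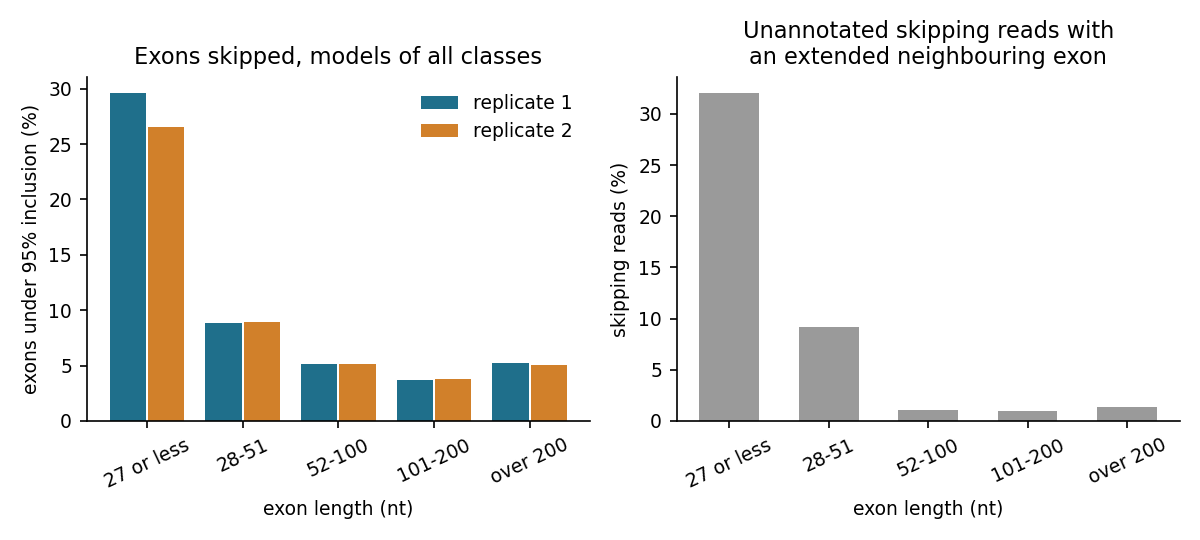
The left panel plots the percentage of exons included in under 95% of reads of all model classes, by exon length and library (blue, replicate 1; orange, replicate 2). The right panel plots the percentage of unannotated skipping reads, over both libraries, in which the neighbouring exons were extended by 1 to 60 nt, summed over both sides. Both are highest for exons of 27 nt or less, at 27% over both libraries on the left and 32.0% on the right.

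Of 3101 reads of unannotated models that skipped a microexon, 42.3% joined the neighbouring exons. In 32.0% the neighbouring exons ran on by 1 to 60 nt, summed over both sides. Such extensions made up 9.16% of unannotated skipping reads at 28 to 51 nt, 1.07% at 52 to 100 nt, 0.957% above 100 and up to 200 nt and 1.41% over 200 nt. Of the 993 extension reads over microexons, 772 (77.7%) had an extension within 5 nt of the microexon's own length, a tolerance chosen after the data were seen. Chmp1a and Bsg gave most of these, and without them 199 of 411 (48.4%) lay within 5 nt. In Bsg, which encodes the transporter chaperone basigin, 258 reads had an extension of 28 nt, summed over both neighbours, and skipped its 25-nt microexon. In Timm50, a subunit of the mitochondrial import machinery, 34 reads had an extension of 22 nt, the length of the microexon itself. The part of read alignment in these reads was not tested.

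**Figure D4:**
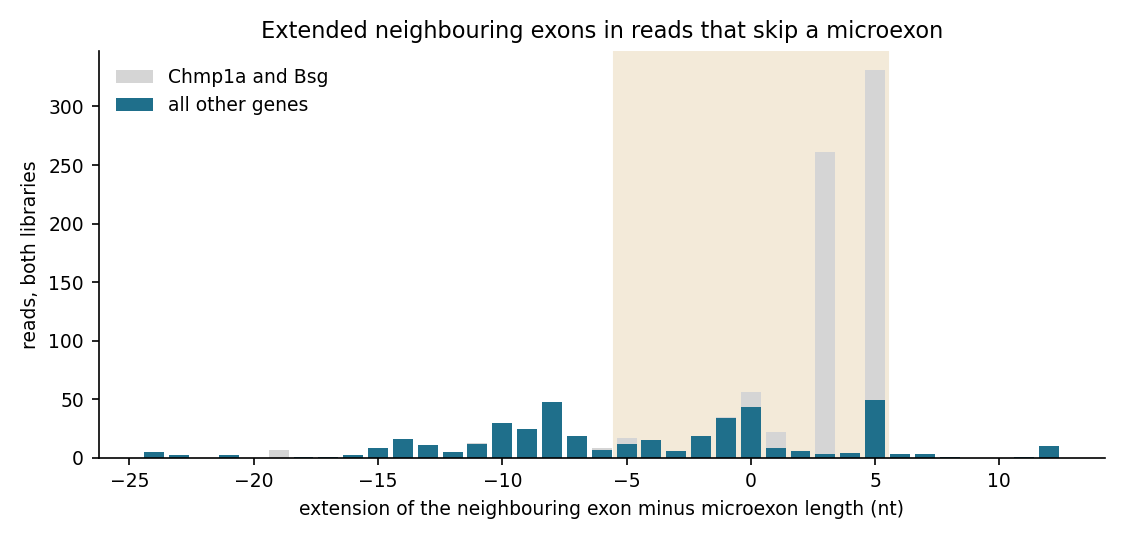
The horizontal axis is the extension, summed over both neighbouring exons, minus the length of the skipped microexon, in nt. The vertical axis is the number of reads in both libraries. Blue bars are all genes but Chmp1a and Bsg (grey), and the shaded band marks 5 nt on each side. The tallest bars lie at 3 and 5 nt and come mainly from Bsg and Chmp1a, and the other genes have peaks at 5, near 0 and near -8.

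A list of 70 nervous-system and muscle genes known for microexons was examined. Of these genes, 53 have 113 annotated microexons, and 4 of these were members, in Bin1, Dnm2, Mark3 and Abi1. Over all 2230 annotated microexons, 304 (13.6%) were in members. Of the 113, 26 had 10 or more skipping Known reads, and for most of the others reads were too few to judge. A total of 21 of the 26 had 0 including Known reads, and the 26 include the 4 members. Among all annotated microexons outside the members, 201 had 10 or more skipping Known reads. Of these, 189 had 0 including Known reads, so the list did not stand apart in this. Ergic3, of the early secretory pathway, skipped its 15-nt exon in 295 and 291 reads, and 0 including reads of 586 allow an inclusion of up to 0.512%. Kdm1a, a histone demethylase with a neuronal 12-nt exon, had 82 and 68 skipping reads, which allows up to 2.00%. Another 12-nt exon of Dnm2 had 62 and 16 skipping reads and no including read, and another 15-nt exon of Abi1 had 12 and 11. Of the 21, 5 had including reads in models of other classes, such as a 27-nt exon of the phosphatase Ptpra, with 17 and 7. Of the 189, 32 had such reads.

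The regulators of microexons were measured as gene levels. Srrm4 had 0 reads in both libraries, so levels up to 3.23 and 2.30 CPM are possible. Srrm3 had 3 and 2 reads. Ptbp1, a repressor, had 114 reads (123 CPM) in replicate 1 and 98 (75.2 CPM) in replicate 2, and Rbfox2 had 15 and 31. Of the 30 regulators, 21 had 10 or more reads and were tested against all other reads. By Fisher's exact test U2af1, which reads the end of the intron before an exon, was higher in replicate 2 (43.1 and 165 CPM, adjusted p = 2.12e-17), and 6 were lower. Over all 11650 genes tested in this way, 13.0% were higher and 22.2% lower.

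The level of 229 members with 10 or more reads was compared between libraries by Fisher's exact test (two-sided) against all other reads on annotated genes, adjusted over 10753 Known transcripts. Of these members, 27 (11.8%) were higher in replicate 2 and 57 (24.9%) lower, close to the 11.9% and 26.9% among all transcripts tested. TMM scaling with an exact binomial test gave 30 members higher and 30 lower, against 14.9% and 17.5% of all transcripts. DESeq2 size factors with the same binomial test gave 32 and 27, against 15.2% and 16.4%. The split differed between these settings, in members and in all transcripts, and TMM moved every ratio by 0.24 on the log2 scale. The median log2 ratio of replicate 2 to replicate 1 was -0.46 in the members and -0.41 in all transcripts. The members higher in replicate 2 had a median spliced length of 1212 nt and the lower ones 2934 nt, and over all transcripts these were 945 nt and 2810 nt. The part of transcript length in these calls was not tested.

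The most-read members were led by Bsg-205, with 1709 and 1701 reads. Its level was 1842 and 1305 CPM, a log2 ratio of -0.50 (adjusted p = 3.90e-22, Fisher's exact test, as below unless another test is named). Gpx4-202, of the selenoprotein that removes lipid peroxides, had 466 and 986 reads and was 1.51-fold higher in replicate 2 (adjusted p = 2.20e-12). Rpl41-201, of a small ribosomal protein whose gene holds a 23-nt and a 25-nt microexon, had 188 and 1315 reads and was 4.97-fold higher (adjusted p = 5.91e-132). Mtch2-205 had 507 and 568 reads and a log2 ratio of -0.33. It passed in CPM (adjusted p = 0.00110) and not with TMM (exact binomial test, adjusted p = 0.540). Poldip2-201, of a mitochondrial and nuclear DNA polymerase partner, had 424 and 361 reads (log2 ratio -0.72). Hsd17b4-201, of peroxisomal fatty acid oxidation, had 277 and 336 reads and did not pass (adjusted p = 0.143). Timm50-201 had 269 and 282 reads and a log2 ratio of -0.42. It passed in CPM (adjusted p = 0.00268) and not with TMM (exact binomial test, adjusted p = 0.282). Trim35-201 had 330 and 151 and a log2 ratio of -1.62. Uqcrh-202, of respiratory complex III, had 106 and 456 reads and was 3.05-fold higher in replicate 2. Of these genes, Mtch2 had skipping Known reads and the others had 0.

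Several members in genes of liver or muscle, named here after their values were seen, were higher in replicate 2, and others were not. F2-201, of prothrombin, had 247 and 748 reads and was 2.15-fold higher in replicate 2 (adjusted p = 1.03e-26). Proc-206, of protein C, had 47 and 196 reads (2.95-fold) and Cfi-201, of complement factor I, 48 and 163 (2.40-fold). Myl1-202 had 22 and 158 reads and was 5.01-fold higher. The clotting factor members F7-201 (19 and 27 reads, adjusted p = 1), F9-201 (adjusted p = 0.896) and Proz-201 (adjusted p = 0.802) did not pass. Pzp-201, of a protease inhibitor, was lower in CPM (adjusted p = 0.0152) and did not pass with TMM (exact binomial test, adjusted p = 0.212). In these libraries the liver marker sum was 8570 CPM in replicate 1 against 25963 CPM in replicate 2, and the muscle sum 845 against 2754 CPM, and their part in these values was not tested. The opposite was seen for Dab2, an endocytic adaptor, whose 4 tested member models Dab2-202, Dab2-203, Dab2-204 and Dab2-211 were all lower in replicate 2. Dab2-202 had 155 and 6 reads (167 and 4.60 CPM), a log2 ratio of -5.07 (adjusted p = 6.96e-49). Its 27-nt microexon was in 234 and 15 reads of Known models and skipped in 0.

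**Figure D5:**
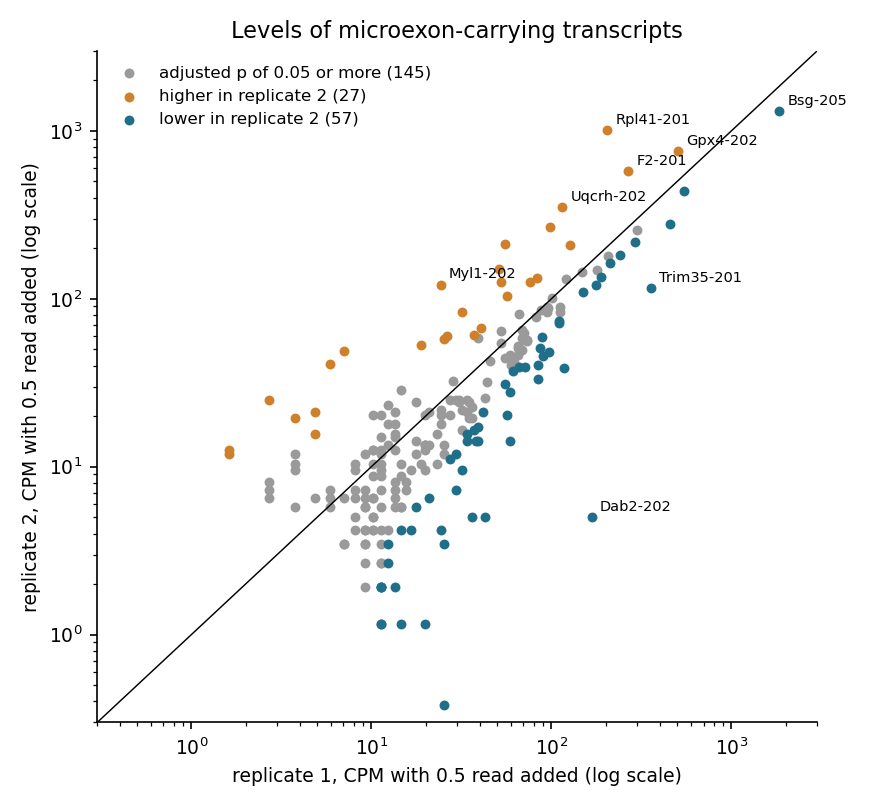
Each point is a member with 10 or more reads, placed by its level in replicate 1 and replicate 2 in CPM with 0.5 read added, on log axes. The line marks equal levels, orange points passed as higher in replicate 2 (27), blue points as lower (57) and grey points did not pass (145). Rpl41-201 and Myl1-202 lie above the line and Dab2-202 far below it.

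As a share of all Known reads of the same gene, 159 members could be tested and 2 passed, against 2.18% of all 6881 transcripts tested in this way. Both were in Col18a1, which encodes the precursor of endostatin. Col18a1-202 had 29 of the gene's reads against 10 of other models in replicate 1, then 12 against 28 (Fisher's exact test, adjusted p = 0.00809). Col18a1-203 had 10 against 29 and 26 against 14 (adjusted p = 0.0333). In each of these tests nearly all reads of other models were those of the other Col18a1 model. Both calls thus describe a single shift within the gene. Both models carry the gene's microexons, so they differ in other parts of the transcript.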

How the data were processed

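Per the file headers, each deposited table holds counts of long reads per transcript model of 1 library, not normalized, and the other values used from the files (exon positions and model lengths, in bases) describe the models. Per the file headers the models are GENCODE M21 transcripts and models added by TALON on mm10. For the aligner and the version of TALON, none is given in the sources used here. All 141862 annotated models in the deposited files had the exons of GENCODE M21. Members, lists and families were chosen with earlier results of these data known.

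For each internal exon, including reads came from models that contain it exactly and skipping reads from models of the same gene with an intron that spans it. Shares have 95% Clopper-Pearson intervals. Exons with an annotated skipping model and at least 10 such reads in each library were compared by Fisher's exact test (scipy 1.17.1). So were transcripts with 10 or more reads over both. Both used Benjamini-Hochberg adjustment at 0.05, and 0.5 read was added before log2 ratios. TMM factors came from edgeR 4.0.16 and size factors from DESeq2 1.42.0. Transcript levels scaled by these factors were compared by an exact binomial test with the same adjustment. Both Fisher's exact tests were tested on simulated data. Named microexons were the 25 with most reads among those with skipping reads, those in the nervous-system and muscle list, and the 10 most-read members. The same rule names the 10 most-read members with no annotated skipping model. A count of 0 was taken to allow 3 reads. Alternatives are given in the closing section.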

Additional observations from a re-analysis of the deposited data

Results flagged for a closer look

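For 270 of the 304 member microexons, Known models had 0 skipping reads, and in 141 of these, models outside the annotation did skip the exon. The 10 below had more than 3 such reads and 5% or more of reads in both libraries, above what a count of 0 allows. Chmp1a, an ESCRT-III protein, skipped its 20-nt exon in 97.6% of reads (mean of the libraries), with 3 including and 102 skipping reads in replicate 1 and 4 and 194 in replicate 2. In 282 of these reads the neighbouring exons were extended by 25 nt, summed over both sides. Zswim7 (22 nt) skipped it in 51.5%, with 3 and 4 reads, then 13 and 11. Complement factor I, Cfi, has adjacent microexons of 21 and 27 nt, skipped in 21.6% and 12.8%. The kinase gene Map2k5 (27 nt) had 11.2%, Dtnbp1 (23 nt) 10.9%, a Col18a1 exon (27 nt) 9.56%, Bsg (25 nt) 7.70%, the ubiquitin ligase gene Rnf5 (19 nt) 7.63% and Timm50 (22 nt) 5.76%. In Bsg this was 170 skipping against 1767 including reads in replicate 1 and 126 against 1774 in replicate 2. Of these skipping reads, 148 and 110 had neighbouring exons extended by 28 nt, summed over both sides. The same held for 24 of 25 and 23 of 29 skipping reads in Dtnbp1 (28 nt). It held for 17 of 18 and 17 of 19 in Timm50 (22 nt) and for 10 of 10 and 8 of 9 in Rnf5 (11 nt). At the 21-nt exon of Cfi, an extension of 24 nt was in 0 of 15 and 2 of 50.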

How the results depend on the processing

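No paired analysis was possible because the series holds 1 group. The count of microexons differing in inclusion between libraries, 0 of 51, was 2 among exons up to 51 nt (436 tested) and 0 under every other alternative run: skipping models with the same neighbours, all 4 classes, minimums of 5 or 20 reads, and exons up to 15 nt. The count included at 5% to 95%, 21 of 51, was 47 of 196 with all 4 classes, 2 of 2 up to 15 nt and 112 of 436 up to 51 nt; with 1 library left out it was 20 to 23. The count of members differing in level was 84 of 229, against 38.8% of all transcripts tested. It was 60 of 229 with TMM (all transcripts 32.4%) and 59 of 229 with DESeq2 size factors (all 31.6%). It was 86 of 385 with a minimum of 3 reads (all 24.1%) and 76 of 173 with 20 (all 47.0%). As a share within the gene it was 2 of 159 (all 2.18%). That test measures a share within the gene and not a level, and fewer reads enter it. The reason for the lower count was not tested. Of named transcripts, Mtch2-205, Timm50-201 and Pzp-201 no longer passed with either scaling, where an exact binomial test replaced Fisher's exact test. Hsd17b4-201 turned from a log2 ratio of -0.21 to 0.032 with TMM and 0.063 with DESeq2, as the scaling shifted all ratios. Mean inclusion moved beyond the SD of the libraries in 7 of 34 microexons with same-neighbour models and in 19 of 34 with all classes. The 19 include Git1, which had a value in replicate 1 only and thus no SD, so its SD was taken as 0. Depth limits these values, since 156 of 385 models had under 10 reads.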
